A study of Homo sapiens with 6 samples.

Results

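The integrated stress response and the cystine exchanger linked to it were followed here through 8 genes: ATF3, DDIT3, PPP1R15A, SLC7A11, SLC3A2, SESN2, DDIT4 and GADD45A. The genes were selected by symbol from a table of 405 genes in which the authors had already picked out differences, and each was then read from a table of all 32321 probe sets of the array. Having been picked that way, the 8 genes were bound to differ between the groups, so their differences are given as a description. In the arrays labelled Gli3T, 7 of the 8 genes were lower, by 1.57-fold to 2.68-fold, and 1, DDIT4, was higher by 2.04-fold.

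The cells were Panc-1, an established line derived from a human ductal tumour of the pancreas. One group of 3 samples was transfected with the empty pCIG vector, and the other group of 3 with pCIG carrying Gli3T, a dominant-negative repressor form of the Gli transcription factors of the hedgehog pathway. Both groups were grown in DMEM with serum, both were transfected with Lipofectamine 2000, and GFP-positive cells were sorted from both 24 h later, so the measurements describe transfected cells only. Total RNA was measured on 6 Affymetrix arrays, 1 per sample. The values are on the log2 scale after RMA, in which 1 unit is a doubling. The labels do not say that the samples came from separate cultures, so every p-value measures the spread between these samples, which may be technical, and the number of arrays limits the precision.

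In the integrated stress response, kinases that sense misfolded protein, lack of amino acids, double-stranded RNA or lack of haem phosphorylate the initiation factor eIF2-alpha. General translation then slows, while translation of the transcription factor ATF4 rises and ATF4 switches on genes for amino acid import and synthesis, redox defence and recovery. Pancreatic cancer cells take up cystine through the exchanger xCT, and the cysteine made from it feeds glutathione synthesis.

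GLI3, the gene from which Gli3T takes its name, was measured first. Its probe set 8139212 read 9.20, 9.12 and 9.31 in empty vector replicates 1 to 3, and 8.002, 7.92 and 7.71 in Gli3T replicates 1 to 3. All arrays labelled Gli3T were thus lower, with a log2 difference of -1.34 ± 0.11 (SE, n = 3 per group), and whether the probe set can detect the transfected sequence was not tested. PTCH1, a textbook target that active Gli factors switch on, was named after its value was seen. It went from 8.11 ± 0.17 to 9.02 ± 0.12 (SD, n = 3 per group), a difference of 0.91 ± 0.12 log2 (SE; limma, adjusted p = 0.0224). Directions below therefore rest on the labels. Of the 29 cell type markers listed for Panc-1 epithelium and for acinar cells, leukocytes, fibroblasts and endothelium, only the keratin gene KRT80 carries a name in the files. It differed by 0.75 ± 0.11 log2 (SE), with the arrays labelled Gli3T above the empty-vector arrays, and the other markers were not analysed here. Empty vector replicate 1 stood apart from the rest, with correlations of 0.980 to 0.985 to the other arrays, and had the lowest array weight in limma, 0.133, against 0.372 to 4.46 for the others. The median SD over all probe sets was 0.176 in the empty-vector group and 0.0767 in the group labelled Gli3T.

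The sequences just upstream of the start sites are shown first, because 7 of the genes were lower together and 1 went the other way. RefSeq promoter windows on GRCh38.p14 were at hand for 6 of the 8 genes, in 10 windows. The 250 bases before the start were searched on both strands for 5 motifs. These were the C/EBP-ATF core TGATGNAA, through which ATF4 dimers bind, the cyclic AMP response element TGACGTCA, and the AP-1 site TGANTCA. The antioxidant response core TGACNNNGC, bound by NRF2, and the GLI site GACCACCCA were searched as well. SLC7A11 and GADD45A had no window. In each line the sequence runs 5′ to 3′ along the gene's strand, and capitals mark the matches.

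PPP1R15A, chr19:48872171-48872420, plus strand: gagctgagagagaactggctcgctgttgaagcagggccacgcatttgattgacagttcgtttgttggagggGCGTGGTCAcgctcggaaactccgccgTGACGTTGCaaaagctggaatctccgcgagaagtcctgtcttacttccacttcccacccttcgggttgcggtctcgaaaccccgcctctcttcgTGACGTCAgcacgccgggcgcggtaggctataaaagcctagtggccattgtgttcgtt

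ATF3, chr1:212565157-212565406, plus strand, the first of its windows by position: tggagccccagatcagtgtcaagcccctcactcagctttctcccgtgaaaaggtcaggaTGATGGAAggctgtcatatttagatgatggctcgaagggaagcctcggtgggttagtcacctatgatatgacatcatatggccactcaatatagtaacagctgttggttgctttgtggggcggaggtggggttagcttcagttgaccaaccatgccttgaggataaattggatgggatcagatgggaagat

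DDIT3, chr12:57520515-57520764, minus strand: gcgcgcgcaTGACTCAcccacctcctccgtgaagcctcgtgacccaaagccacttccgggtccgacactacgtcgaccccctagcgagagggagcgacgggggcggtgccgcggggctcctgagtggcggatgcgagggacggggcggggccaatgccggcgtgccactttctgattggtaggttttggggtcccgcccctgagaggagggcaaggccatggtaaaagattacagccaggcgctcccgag

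SLC3A2, chr11:62881449-62881698, plus strand, the last of its windows by position: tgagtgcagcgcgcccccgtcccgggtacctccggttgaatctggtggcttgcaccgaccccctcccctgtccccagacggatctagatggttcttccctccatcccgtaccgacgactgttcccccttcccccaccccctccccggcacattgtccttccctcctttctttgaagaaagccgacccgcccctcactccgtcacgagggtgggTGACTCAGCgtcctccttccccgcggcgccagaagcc

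DDIT4, chr10:72273674-72273923, plus strand, the only higher gene: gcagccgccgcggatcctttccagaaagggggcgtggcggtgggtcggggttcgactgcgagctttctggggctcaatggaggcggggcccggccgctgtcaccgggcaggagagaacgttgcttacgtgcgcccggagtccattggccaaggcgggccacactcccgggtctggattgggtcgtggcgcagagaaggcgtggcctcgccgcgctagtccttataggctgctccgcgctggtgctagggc

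The PPP1R15A window held a cyclic AMP response element from 58 to 51 bases before the start, and 2 antioxidant response cores from 179 to 171 and from 152 to 144 bases before it. The cyclic AMP response element was found in 1.65% of all 35116 windows, and the antioxidant response core in 10.9%. The ATF3 window shown held a C/EBP-ATF core from 191 to 184 bases before the start, a motif found in 3.14% of all windows. Its other window, farther along the chromosome, held none of the 5 motifs. The DDIT3 window shown held an AP-1 site from 241 to 235 bases before the start. Its other window, which overlaps the one shown almost fully, held the same site from 238 to 232 bases before its start. The SLC3A2 window held an AP-1 site from 37 to 31 bases before the start, which overlaps an antioxidant response core from 37 to 29. AP-1 sites were found in 6.57% of all windows. The windows of SESN2 and DDIT4 and the other SLC3A2 windows held no match, and no window of the 6 genes held the GLI site, which 0.199% of all windows hold. A match is a run of letters and not a site in use, and the search says nothing of sequence outside these windows.

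The transcription factor genes of the response were both lower in the arrays labelled Gli3T. ATF3, a bZIP factor switched on by ATF4 and other stress signals, read 9.85, 9.54 and 9.84 in empty vector replicates 1 to 3 (probe set 7909610). It read 8.26, 8.27 and 8.43 in Gli3T replicates 1 to 3. The groups did not overlap, and the space between them, 1.11 log2, was wider than the 0.31 log2 that the empty-vector arrays spanned. The log2 difference was -1.42 ± 0.11 (SE, n = 3 per group; limma, adjusted p = 0.00884 over all probe sets), or 2.68-fold, the farthest from 0 among the 8 genes. In RNA pooled from sorted cells, fewer expressing cells and less RNA per cell cannot be told apart, here or below.

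DDIT3, which encodes CHOP, a bZIP factor linked to cell death under prolonged stress, was the steadiest of the 8 (probe set 7964460). Its empty-vector arrays read 11.16, 11.16 and 11.20, and its Gli3T arrays 10.26, 10.17 and 10.27. The empty-vector values thus lay within 0.04 log2 of each other and 0.88 log2 above the highest Gli3T value. The residual SD of this probe set, a measure within the groups, was at percentile 3.82 of all probe sets. DDIT3 differed by -0.94 ± 0.08 log2 (SE, n = 3 per group; limma, adjusted p = 0.00884), or 1.92-fold.

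PPP1R15A encodes GADD34, which brings a phosphatase to eIF2-alpha and so ends the response (probe set 8030128). It read 11.37, 10.96 and 11.17 in the empty-vector arrays and 10.08, 9.93 and 10.06 in the arrays labelled Gli3T. Its empty-vector arrays were spread more widely than those of any other member, over 0.42 log2, yet all lay above the Gli3T arrays. The log2 difference was -1.14 ± 0.12 (SE, n = 3 per group; limma, adjusted p = 0.0166), or 2.21-fold.

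Both subunits of the cystine exchanger were lower in the arrays labelled Gli3T. SLC7A11 encodes xCT, the light chain that carries cystine in and glutamate out (probe set 8102800). It read 11.27, 11.22 and 11.47 in the empty-vector arrays and 10.14, 9.94 and 10.04 in those labelled Gli3T. Every empty-vector value was at least 1.07 log2 above every Gli3T value. SLC7A11 differed by -1.28 ± 0.10 log2 (SE, n = 3 per group; limma, adjusted p = 0.00884), or 2.42-fold.

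SLC3A2 encodes the heavy chain 4F2hc (CD98), which brings xCT and several other amino acid transporters to the cell surface (probe set 7940717). Its empty-vector arrays read 12.03, 11.80 and 11.79, with replicate 1 the highest, and its Gli3T arrays 11.24, 11.21 and 11.22. The log2 difference was -0.65 ± 0.09 (SE, n = 3 per group; limma, adjusted p = 0.0283), or 1.57-fold, the least among the 8 genes. The difference of SLC7A11 was -0.63 log2 beyond that of SLC3A2. Taken array by array, SLC7A11 relative to SLC3A2 was lower in all 3 Gli3T arrays, by -0.54, -0.72 and -0.63 against the empty-vector mean, than in the empty-vector arrays, at -0.21, -0.03 and 0.23. This comparison was chosen after the values were seen, and a two-sided exact permutation test gave p = 0.1, the smallest that 3 against 3 arrays allow. With the groups fully apart the test could give no other value, so nothing is read from it. Whether both probe sets respond alike to a change in RNA was not tested.

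**Figure D1:**
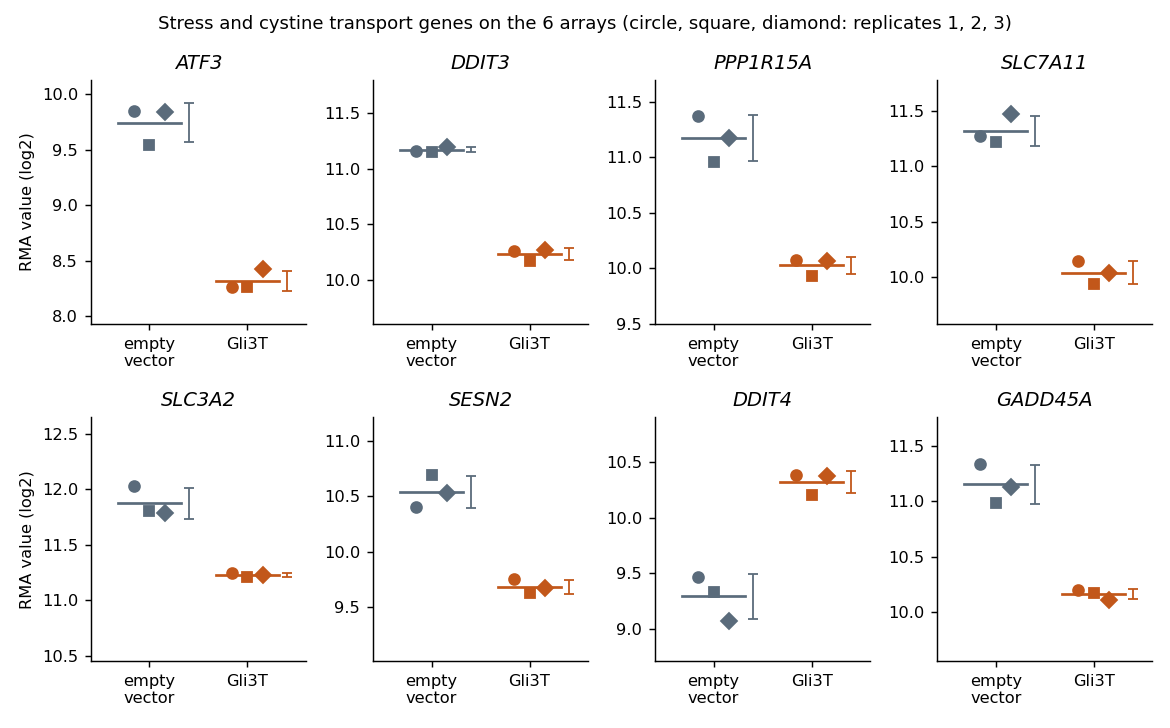
RMA value (log2) of each gene on the 6 arrays, with the empty vector in grey and Gli3T in orange; symbols are replicates 1 to 3, horizontal lines the group means, and the bars beside them 1 SD. Every panel spans the same number of log2 units. The groups overlap for none of the 8 genes, and DDIT4 alone is higher in the arrays labelled Gli3T.

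Among the genes that slow growth under stress, SESN2 and GADD45A were lower and DDIT4 was higher. SESN2 encodes sestrin 2, a leucine sensor that restrains mTORC1 and is induced by ATF4, p53 and NRF2 (probe set 7899436). It read 10.40, 10.69 and 10.53 in the empty-vector arrays and 9.75, 9.63 and 9.67 after Gli3T. Between the nearest values of both groups lay 0.65 log2. The log2 difference was -0.86 ± 0.10 (SE, n = 3 per group; limma, adjusted p = 0.0182), or 1.81-fold.

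GADD45A, a stress gene induced by p53 and ATF4 that acts on cell cycle arrest and on stress kinases, read 11.34, 10.98 and 11.13 in the empty-vector arrays (probe set 7902227). It read 10.20, 10.18 and 10.11 in the arrays labelled Gli3T. The log2 difference was -0.99 ± 0.11 (SE, n = 3 per group; limma, adjusted p = 0.0167), or 1.98-fold. Its empty-vector arrays had the same order as those of PPP1R15A, with replicate 1 the highest and replicate 2 the lowest.

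DDIT4 encodes REDD1, which restrains mTORC1 through the TSC complex and is induced by ATF4, by hypoxia through HIF-1 and by glucocorticoids (probe set 7928308). It read 9.47, 9.34 and 9.07 in the empty-vector arrays and 10.39, 10.21 and 10.37 in those labelled Gli3T. Its groups did not overlap either, but in the other direction, with 0.74 log2 between their nearest values. DDIT4 differed by 1.03 ± 0.12 log2 (SE, n = 3 per group; limma, adjusted p = 0.0188), or 2.04-fold higher. SESN2 and DDIT4, the inhibitors of mTORC1 in this set, thus differed in opposite directions between the groups of arrays.

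**Figure D2:**
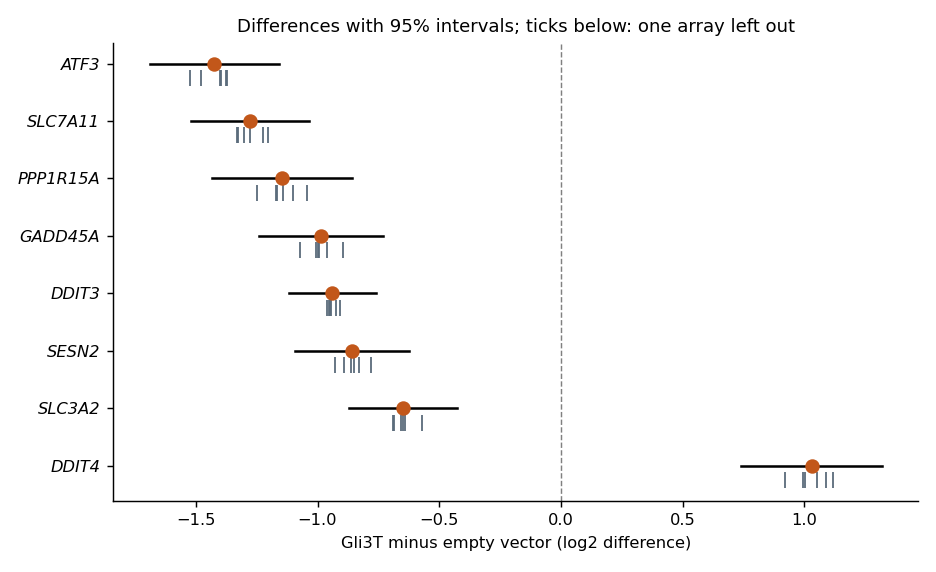
Log2 difference, Gli3T minus empty vector, of each gene (orange point) with its 95% interval from limma (black line); the ticks below each line are the differences with 1 array left out in turn. ATF3 lies farthest to the left at -1.42, DDIT4 alone lies to the right of 0, and every tick stays on the side of its point, as it must where groups do not overlap.

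The adjusted p of all 8 genes was under 0.05, against 2.47% of all 32321 probe sets (1.06% lower and 1.4% higher in the arrays labelled Gli3T). The groups overlapped for none of the 8, and for all but 24.4% of all probe sets, made up of 13% lower and 11.4% higher without overlap. Nothing is read from these counts, as the genes came from a table picked for difference. Of the 398 genes of that table found on the array, 136 were lower and 262 higher. The median difference of the 8 genes was -0.96 log2, against 0.65 over those 398 genes and -0.05 over all probe sets. By the size of the difference in either direction, ATF3 ranked 99 and SLC3A2 ranked 1239 among all probe sets, with the other 6 genes between them.

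The calls did not hold without the full set of Gli3T arrays, and the cause was not tested. Without any 1 of the Gli3T arrays, none of the 8 genes passed limma's adjusted threshold (adjusted p of 0.0695 to 0.164). Over the whole array 0, 1 and 0 probe sets passed without Gli3T replicate 1, 2 and 3, with 3471, 3751 and 3469 at an unadjusted p under 0.05. Without empty vector replicate 3, only ATF3, DDIT3 and SLC7A11 passed, and 69 probe sets were called over the whole array. All 8 passed without empty vector replicate 2, and also without replicate 1, the array that stood apart, where 2178 probe sets were called in place of 798. The differences under the alternatives tried were 0.83 to 1.15 times those given here. Alternatives that change only the error estimate or the probe sets tested leave a difference the same by construction. They say nothing of its stability.

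**Figure D3:**
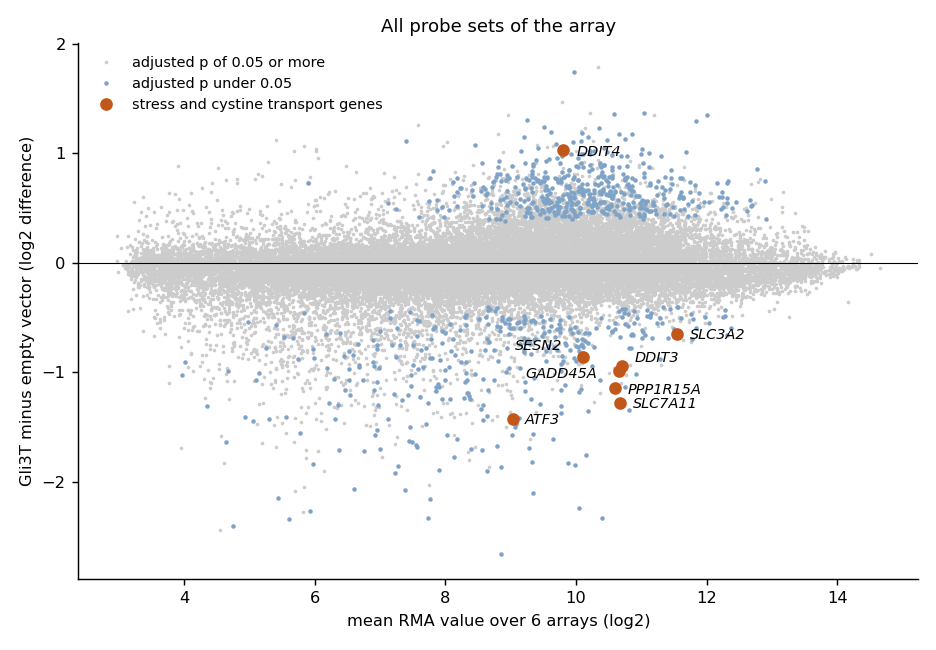
Log2 difference, Gli3T minus empty vector, against the mean RMA value over the 6 arrays for all 32321 probe sets; blue points have an adjusted p under 0.05 in limma, and orange points are the 8 genes. Of these, 7 lie below 0, from -1.42 to -0.65, and DDIT4 lies above it at 1.03.

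Within the groups the 8 genes did not move as one. Empty vector replicate 1 was the highest empty-vector array for 5 of the 8 genes (ATF3, PPP1R15A, SLC3A2, DDIT4 and GADD45A) and the lowest for SESN2. It was above the mean of replicates 2 and 3 by 0.31 log2 for PPP1R15A, 0.28 for GADD45A, 0.26 for DDIT4 and 0.24 for SLC3A2, and below it for SESN2, at -0.21. The higher gene, DDIT4, and the lower genes PPP1R15A and GADD45A thus deviated the same way in this array. The median over all probe sets of this array was 8.53, against 8.42 in each of the other empty-vector arrays. The deviations given are not corrected for this, and the share of all probe sets highest in this array was not counted. Empty-vector SDs of the 8 ran from 0.02 to 0.21 log2 and Gli3T SDs from 0.02 to 0.10. For 7 of the 8, all but DDIT3, the empty-vector group had the larger SD, as it did for 83.4% of all probe sets.

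**Figure D4:**
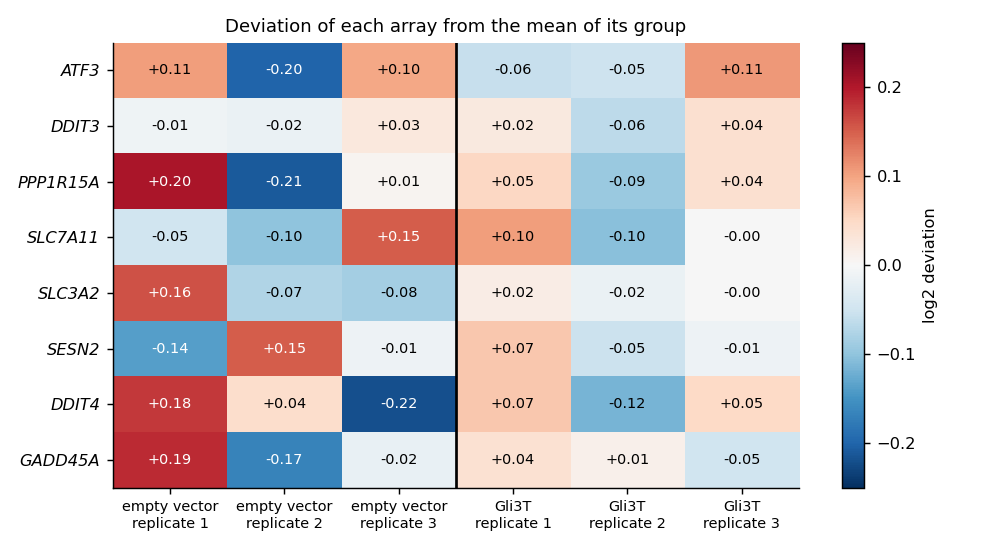
Deviation (log2) of each array from the mean of its own group for the 8 genes, written in each cell and coloured from blue (below) to red (above). For all genes but DDIT3 the empty-vector columns carry the larger deviations, up to 0.20 in replicate 1 and down to -0.22 in replicate 3, while the Gli3T columns stay between -0.12 and 0.11.

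Other genes of these pathways were looked for in 10 lists with 181 genes in all, as counted after symbol matching. The deposited table names 11 of them, the 8 genes above and 3 more that the authors had likewise picked, and all 3 passed the test, 2 lower and 1 higher. In the list of NRF2 and glutathione genes (25 genes) TXNIP was the only gene named. This inhibitor of thioredoxin read 10.26, 10.46 and 10.47 in the empty-vector arrays and 8.22, 8.39 and 8.27 under the Gli3T label. Its difference was -2.10 ± 0.10 log2 (SE; limma, adjusted p = 0.00419). In the heat shock list (14 genes) the chaperone gene DNAJB4 was lower, at -1.18 ± 0.13 (SE; limma, adjusted p = 0.0166). Among 21 p53 targets, RRM2B, a ribonucleotide reductase subunit, was higher by 0.74 ± 0.13 (SE; limma, adjusted p = 0.0393), while SESN2 and GADD45A, also on that list, were lower. As for the 8 genes, these calls rest on the full set of Gli3T arrays: without 1 of them, only TXNIP passed, and only with replicate 2 left out. RRM2B also missed the threshold without empty vector replicate 2, without replicate 3 and with arrays centred on their median (adjusted p = 0.0546).

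The eIF2 kinases and eIF2 machinery (18 genes) had 1 named gene, PPP1R15A, and the factors around ATF4 (15 genes) had ATF3 and DDIT3. The list of ATF4 targets headed amino acid synthesis and one-carbon metabolism (17 genes) had SLC7A11, itself a transporter gene. SLC7A11 also stood with SLC3A2 among the amino acid transporters (19 genes). The list of sestrins, GADD45 genes and mTOR brakes (15 genes) had 3 named genes, SESN2, GADD45A and DDIT4, 2 lower and 1 higher. None of the genes in the list of aminoacyl-tRNA synthetases, which also holds XPOT, was named. Neither was any of the 23 endoplasmic reticulum chaperones and ATF6 or XBP1 targets. The synthetase list counted 18 genes after symbol matching, which merged different symbols, so this count and the total of 181 are slightly low. ATF4 itself, the kinases EIF2AK1 to EIF2AK4, ASNS, TRIB3, CHAC1, HSPA5, XBP1, HMOX1 and CDKN1A were not analysed here, as the 31923 probe sets outside the table carry no gene names in the files. Their absence from the table does not show that they were unchanged.

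The genes whose values over the 6 arrays were most like those of DDIT3 and DDIT4 were picked by Pearson's r among the other named genes. With 2 groups of arrays such an r mostly records the group difference, so it is a description. For DDIT3 these included EID2B (r = 0.999), PDRG1 (0.998), the immediate early gene EGR1 (0.998) and PEA15 (0.997). For DDIT4 they were BAHD1 (r = 0.999), the kinase gene PIM2 (0.998), ADAMTS15 (0.997), KCNK6 (0.997) and CHDH (0.995), all higher, by 0.59 to 0.94 log2.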

How the data were processed

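Expression was measured on 6 arrays, 3 per group by sample title. The authors deposited log2 values of all probe sets; per the submitters' processing notes RMA, oligo and limma were used (versions not given), and the build, annotation and selection limits are not given in the sources used here. The deposited table of 405 selected genes supplied the gene names. Set against the whole-array values by probe set (398 found, 7 not used here), its 139 displaced rows held the values of all arrays but Gli3T replicate 3 in the column to the right, within 0.1 log2 in all 135 such rows found. Gli3T replicate 3 was not looked for in them. In front stood an unlabelled number, 0.86 to 1.04 times the adjusted p found here. In its ordinary rows the sixth column did not follow any array. Only 12 of 263 cells lay within 0.1 log2 of the nearest, Gli3T replicate 2. Members were therefore read from the whole-array table, and 1 unnamed column was not used.

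limma 3.58.1 (R 4.3.3; lmFit, eBayes, 2 groups, no covariate) was fitted to all 32321 probe sets, with Benjamini-Hochberg adjustment over all; a call is an adjusted p under 0.05. The fit was also run on simulated data with the same SD in both groups. The SDs of these arrays differ between the groups, so nothing is read from that run. SEs and 95% intervals are limma's, SDs are per group. The members and lists were chosen with earlier results of these data known, and the motifs after the values had been seen. Named were the 8 members, GLI3, core pathway genes, up to 3 called genes per list and direction, and the 5 genes most like DDIT3 and DDIT4, of which 1 is not reported here. List symbols were matched through RefSeq synonyms. Alternatives were a mean trend, array weights, a replicate block, leaving out arrays, a filter on dim probe sets, 2 other scalings, a limit of 0.5 log2, and the deposited table's own cells. Python 3.11.15, pandas 2.3.3, SciPy 1.17.1 and matplotlib 3.10.9 were used.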

Additional observations from a re-analysis of the deposited data

How the results depend on the processing

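With arrays left out, the members called ran from 0 to 8, the other pathway genes called from 0 to 3, and the probe sets called from 0 to 2178, each such fit having 1 array fewer. Of the members' differences under alternatives, 81 stayed on their side of the threshold or within 1 SD, 31 no longer passed and 0 reversed; the groups do not overlap, so leaving out an array could not reverse one. The 31 came from leaving out arrays and from the replicate block. The count of probe sets called was 1292 with a mean trend, 7104 with array weights and 1446 after the filter on dim probe sets, against 798; the members called were 8 in each. The cause was not tested, save that the filter tests fewer probe sets. Under array weights, empty vector replicate 2 had a weight of 4.46, against 0.133 for replicate 1 and 0.372 for replicate 3. The weighted empty-vector mean thus rests mostly on replicate 2. With the replicate number as a block, 240 probe sets and 6 members were called, but not SLC3A2 (adjusted p = 0.0781), SESN2 (adjusted p = 0.0523) or, among the other pathway genes, RRM2B (adjusted p = 0.0872). Deviations of same-numbered arrays correlated at -0.30, -0.14 and 0.04, so the numbers are not taken to pair the samples. Centring arrays on their median called 559 probe sets, of which 359 were higher and 200 lower, quantile normalization 939 (576 and 363), against 454 and 344; all 8 members were called in both. The deposited table's own cells moved no difference of a member by 1 SD or more. These cells are near copies of the whole-array values, used without Gli3T replicate 3. They could therefore move a difference only a little, and nothing is read from this, although their values are among the 81. Moving the table's displaced cells back by 1 was chosen after seeing the data. Taking every probe set named for a gene was not run, as each gene had 1 among the named probe sets. Whether a gene has others among the unnamed probe sets is not known here. Signal over background was not known.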

Other observations

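Other genes of translation control and protein quality, put together after their values were seen, were split in direction, and nothing is read from their number. EEF2K, the kinase that slows elongation by phosphorylating eEF2, stood above the empty-vector arrays by 0.58 ± 0.11 log2 under the Gli3T label (SE; limma, adjusted p = 0.0438), and MKNK2, a kinase of the cap-binding factor eIF4E, by 0.70 ± 0.08 (adjusted p = 0.0182). EIF1B, from the family of start codon selection factors, was lower, at -0.68 ± 0.12 (adjusted p = 0.0410). MAP1LC3B, an autophagosome protein gene, was lower at -0.60 ± 0.09 (adjusted p = 0.0323), as was ZFAND2A, an arsenite-inducible partner of the proteasome, at -0.69 ± 0.07 (adjusted p = 0.0166). BAG2, a cochaperone of HSP70, was higher by 0.71 ± 0.10 (adjusted p = 0.0288).

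A further 4 genes were named after their values were seen, and nothing is read from their number or shared direction. The oxygen sensor gene EGLN1 was higher by 0.65 ± 0.10 log2 (SE; limma, adjusted p = 0.0313), and C7orf68, now HILPDA, a lipid droplet protein gene, by 0.93 ± 0.08 (adjusted p = 0.00884). VEGFA was higher by 0.69 ± 0.11 (adjusted p = 0.0315), while SLC2A1 differed by 0.76 ± 0.14 without passing the threshold (adjusted p = 0.0501).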
